A study of Rattus norvegicus with 6 samples.

Results

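The loci described here are stretches of the rat genome that were transcribed in the corneal epithelium, carry no transcript type in the deposited tables, and lie on the strand opposite to a protein-coding gene. They were chosen by annotation and level alone: no transcript type, a strand given, overlap with a coding locus on the other strand, none on their own strand, and a mean of at least 0.5 FPKM (fragments scaled by counted length and library size) over the 6 libraries. Of 61453 loci in the tables, 29622 had no type and 9643 of these had a strand. Overlap with a coding locus on the opposite strand alone left 4143, of which 270 were under the FPKM minimum, so that 3873 antisense loci remained. A locus was taken as coding where protein_coding stood among its types, and its partner is the coding locus with the longest overlap.

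RNA came from corneal epithelium scraped from male Brown Norway rats. The diabetic group received a single intraperitoneal injection of 50 mg/kg streptozocin, which kills insulin-producing beta cells, and the normal group received citrate buffer. Both groups were sampled at 16 weeks and are represented by 3 libraries each. The labels do not say which corneas went into which library, so the p-values measure the spread between these libraries.

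Many mammalian genes are also transcribed from their other strand. Such antisense transcripts can start near the gene's own promoter and run away from it, start within an intron, or arise when a neighbouring gene is read past its end, and a few of them are known to silence or stabilise the gene they face. Many are rare and remain in the nucleus. An antisense call needs the strand of each read, and neither the labels nor the methods say whether these libraries kept strand. Without it, reads of a gene and of its antisense partner cannot be told apart, and every value below carries that limit.

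Library totals ran from 62288901 to 87040253 counts, and diabetic replicates 2 and 3 were the least deep. A count of 0 in a library allows at most 0.0345 to 0.0482 CPM (counts scaled to library size), from counting error alone. The 8 corneal epithelial markers summed to 15630 to 16040 FPKM in normal and 15650 to 17360 in diabetic libraries. The 11 lens markers summed to 113 to 382 FPKM in normal libraries but to 154, 1326 and 3.28 in diabetic replicates 1, 2 and 3. The 10 leukocyte markers summed to 39.7 to 40.7 and 37.5 to 48.3. The 7 conjunctival markers found summed to 1067 to 1598 FPKM in normal and 777 to 1469 in diabetic libraries. The 9 stromal keratocyte markers found summed to 915 to 1166 and 862 to 1024. No lens marker and no leukocyte marker was itself the partner of an antisense locus. Partners did include 2 conjunctival markers and 1 stromal keratocyte marker. *Muc4*, described below, is on the conjunctival list. Diabetic replicates 2 and 3 often stood together against the other 4 libraries: they were the 2 highest or the 2 lowest libraries for the coding partner in 35.6% of all pairs.

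Some antisense loci covered the start of their partner, the end next to its promoter. RefSeq promoters (build GRCr8, 250 bases before to 50 after the start, written on the strand of the gene) are shown for 5 such partners. *Spred2*, *Myo1e* and *Ankh* had the strong antisense loci described below, the antisense locus over *Daam1* was switched on in only 2 libraries, and that over *Zfp655* was called higher in diabetic libraries. The windows are *Spred2* at chr14:98350327-98350626 (+ strand), *Myo1e* at chr8:79768578-79768877 (+), *Ankh* at chr2:79883201-79883500 (+), *Daam1* at chr6:96182731-96183030 (+) and *Zfp655* at chr12:14488240-14488539 (- strand). Capitals mark the GC box with the letters GGGCGG, the CCAAT box with the letters of its name, and the TATA box with the letters TATAAA, each searched on both strands.
Spred2: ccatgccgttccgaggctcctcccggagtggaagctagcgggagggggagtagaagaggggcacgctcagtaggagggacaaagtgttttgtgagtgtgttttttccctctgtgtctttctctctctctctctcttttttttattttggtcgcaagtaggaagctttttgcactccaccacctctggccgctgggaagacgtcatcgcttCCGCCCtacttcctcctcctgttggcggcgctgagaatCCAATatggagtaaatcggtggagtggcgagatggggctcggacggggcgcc
Myo1e: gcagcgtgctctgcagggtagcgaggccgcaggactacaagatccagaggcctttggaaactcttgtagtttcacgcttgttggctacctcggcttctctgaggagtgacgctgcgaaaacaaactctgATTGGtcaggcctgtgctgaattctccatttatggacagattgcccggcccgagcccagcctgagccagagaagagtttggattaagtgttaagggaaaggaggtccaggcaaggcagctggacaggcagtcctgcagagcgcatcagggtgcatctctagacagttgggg
Ankh: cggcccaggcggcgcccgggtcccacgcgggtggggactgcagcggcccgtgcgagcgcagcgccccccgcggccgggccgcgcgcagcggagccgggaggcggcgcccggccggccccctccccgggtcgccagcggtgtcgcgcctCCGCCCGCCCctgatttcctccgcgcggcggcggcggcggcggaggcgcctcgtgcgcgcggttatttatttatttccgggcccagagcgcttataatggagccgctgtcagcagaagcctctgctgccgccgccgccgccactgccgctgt
Daam1: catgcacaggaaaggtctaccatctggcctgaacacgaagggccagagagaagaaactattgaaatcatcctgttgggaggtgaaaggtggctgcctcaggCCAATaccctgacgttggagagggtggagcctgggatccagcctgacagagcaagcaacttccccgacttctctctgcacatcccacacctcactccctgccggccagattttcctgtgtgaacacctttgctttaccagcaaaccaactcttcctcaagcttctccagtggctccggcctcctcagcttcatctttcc
Zfp655: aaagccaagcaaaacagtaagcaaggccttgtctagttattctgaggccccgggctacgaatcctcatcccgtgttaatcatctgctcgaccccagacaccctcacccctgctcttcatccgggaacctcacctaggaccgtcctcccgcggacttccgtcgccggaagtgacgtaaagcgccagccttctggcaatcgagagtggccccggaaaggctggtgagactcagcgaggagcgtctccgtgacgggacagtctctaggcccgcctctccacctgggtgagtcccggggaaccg

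The *Spred2* window held 1 GC box and 1 CCAAT box, those of *Myo1e* and *Daam1* 1 CCAAT box each, that of *Ankh* 2 GC box matches that share letters, and that of *Zfp655* none of them. Among all 27457 RefSeq promoters of this length, 34.9% held a GC box, 37.7% a CCAAT box and 14.3% a TATA box. Only 71.2% of the 2171 partners matched a RefSeq promoter by symbol, as did 71.1% of the names of coding loci at 0.5 FPKM, which include the partners. Among those matched, a GC box stood in 66.5% of partners and 64.0% of coding loci. A CCAAT box stood in 34.0% and 38.0%, and a TATA box in 5.57% and 6.58%. Differences between these shares were not tested. The loci themselves are placed on build rn6 and the promoters on GRCr8, so the windows were not located within the loci.

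The antisense loci lay mostly inside their partner. Of the 3873, 3560 (91.9%) were contained in the partner's span, 143 covered its end, 134 covered its start and 36 spanned it whole. Among those inside, 1112 were centred in the first of 4 equal stretches of the partner counted from its start, 1042 in the second, 856 in the next and 550 in the last. Their spans ran from 200 to 480564 bases, with a median of 3175. The plus strand held 2095 and the minus strand 1778, and 3322 carried the name of their partner in the tables. Intron or exon status of each locus was not analysed here.

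The length behind each FPKM value shows whether a locus was counted as one block. In 2337 antisense loci (60.3%) the counted length was at most 1.5% shorter than the span, and these are called continuous. In the other 1536 (39.7%) it was shorter than that, and these are called gapped. Spliced transcripts would fall in this class, but so do loci only a little short of their span. MSTRG.29627, for example, had 333 counted bases in a span of 362. Whether gapped loci are spliced was not tested. Reaching over an edge of the partner was mostly a property of gapped loci, which made up 113 of the 134 over a start and 36 of the 36 that spanned a gene whole. The median level was 2.72 FPKM for continuous and 2.22 for gapped loci. For comparison, 54.3% of the 2411 untyped loci on the same strand as a coding gene were continuous, as were 100% of the 8026 untyped loci without a strand inside coding genes. The last group was lower, with a median of 1.37 FPKM, while the sense fragments had 2.49.

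Antisense loci were found at 2171 coding partners, of which 2119 reached 0.5 FPKM themselves, or 17.3% of the 12278 coding loci at that level. Long genes held them far more often. The share of coding loci with an antisense locus was 1.92% in the shortest of 4 equal classes of span, then 6.84% and 18.5%, and 41.8% in the longest. Across 4 equal classes of mean FPKM, from the lowest up, it was 6.35%, 17.3%, 24.8% and 20.7%, and 19 of the 100 most abundant coding loci had one. The median span was 70648 bases for partners and 22517.5 for all coding loci at 0.5 FPKM, and since a longer gene offers more sequence to overlap, the share per gene is not a rate per base. Most partners (1362) had a single antisense locus and 116 had 5 or more. The locus named for *Auts2*, a long neurodevelopmental gene, had 22, at 0.528 to 8.45 FPKM. *Camk1d*, a calmodulin-dependent kinase, had 14, *Pard3*, a cell polarity scaffold, had 12, and *Foxp1*, a forkhead repressor, had 9.

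**Figure D1:**
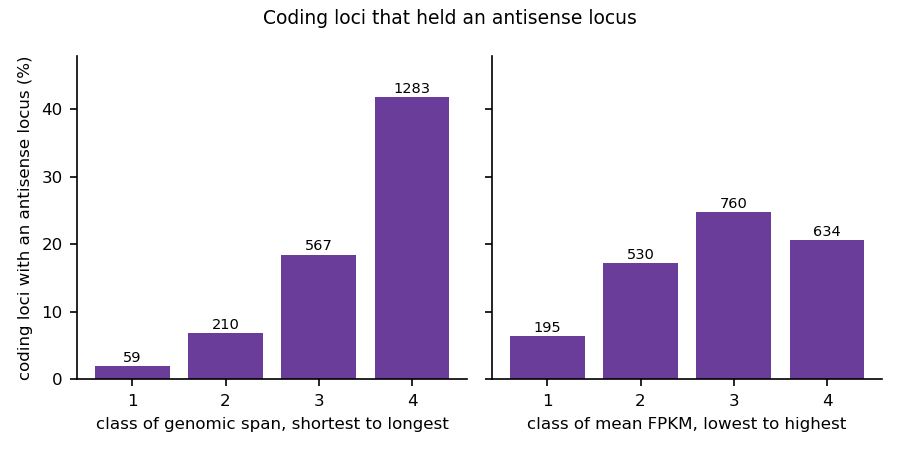
Share (%) of the 12278 coding loci at 0.5 FPKM or more that held an antisense locus, in 4 equal classes of genomic span (left) and of mean FPKM (right), lowest first; the number over each bar is the count of coding loci with an antisense locus. The share climbed from 1.92% to 41.8% with span, and was highest in class 3 of FPKM, at 24.8%.

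Together the antisense loci took 7.21%, 7.13% and 7.96% of the counts in normal replicates 1, 2 and 3 and 7.14%, 7.30% and 7.59% in the diabetic replicates. The groups overlapped. The means were 7.43% ± 0.457 and 7.34% ± 0.226 (SD, n = 3 each), a difference of -0.0904 percentage points with an exact two-sided permutation p of 0.9, where 3 against 3 libraries cannot go below 0.1.

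Single antisense loci were of modest and even level. Their median was 2.53 FPKM, with 1.30 at the 10th and 6.13 at the 90th percentile, 137 reached 10 FPKM and 7 reached 50. At the lower edge, the locus antisense to *Ehmt1* entered with a mean of 0.5004 FPKM and one named for *Snx29* stayed out with 0.498.

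Relative to the coding partner the antisense level was lower in most pairs. The median ratio of mean FPKM (with 0.1 added to both) was -1.14 on the log2 scale, and the median antisense locus stood at 44.3% of its partner, with quartiles of 25.7% and 73.5%. It was higher than the partner in 544 pairs (14.0%), under 10% of it in 240 and at least 10 times it in 37. Between libraries the median log2 ratio ran only from -1.21 in diabetic replicate 2 to -1.08 in normal replicate 3. Counted as reads rather than per length, the median was far lower, at -3.50 on the log2 scale.

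The antisense level followed the partner's level only loosely. For partners at 0.5 to 2 FPKM the median antisense locus had 1.61 FPKM, and for partners at 2 to 5, 5 to 20 and 20 to 100 FPKM it had 2.19, 2.80 and 3.30. Against the 56 partners above 100 FPKM it had 9.06. As a share of the partner this was 113%, 63.7%, 35.0%, 9.62% and 5.32% in turn. In the 58 pairs with a partner under 0.5 FPKM it was 1415.5%. Every antisense locus had to reach 0.5 FPKM, so a weak partner cannot have a low share. The share is also divided by the level that sorts the partners, so part of its fall is built in. Over all pairs the Spearman correlation of the 2 mean levels was 0.30, over pairs that share libraries and, at some genes, a partner. Partner levels come from the same libraries as the antisense levels.

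**Figure D2:**
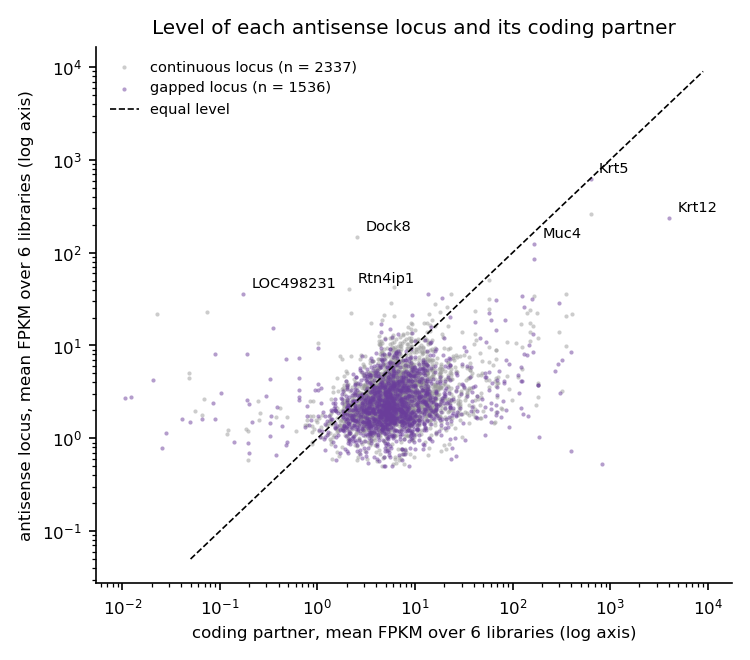
Mean FPKM over 6 libraries of each antisense locus (vertical, log axis) against its coding partner (horizontal, log axis), 1 point per pair, grey for continuous and purple for gapped loci; 8 pairs with a partner under 0.01 FPKM are not drawn, and the dashed line marks equal level. Most points lie below the line, and the cloud stays near 2.53 FPKM while partners range widely.

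Several of the 10 most abundant antisense loci faced keratins and a mucin. *Krt12* encodes the keratin that marks differentiated corneal epithelium. The gapped locus inside it, MSTRG.9114 (rn6 chr10:87328670-87335768, + strand), had 309, 311 and 147 FPKM in the normal and 264, 242 and 147 in the diabetic libraries. These groups overlapped, and the locus stood at 5.87% of *Krt12* itself, which had 3949 ± 282 FPKM in normal and 4119 ± 305 in diabetic libraries. Over a partner whose name joins *Krt5*, the basal-cell keratin, with 3 other symbols lay MSTRG.42011 (chr7:143274130-143320305, +), at 759 ± 395 FPKM in normal and 488 ± 126 in diabetic libraries. A second, continuous locus there, MSTRG.42012, had 272 ± 9.73 and 245 ± 59.6 FPKM. Because the name of this partner joins several genes, which of them these loci face is uncertain. MSTRG.42011 also overlaps 391 bases of a second coding locus on the other strand, which had a mean of 1694 FPKM. MSTRG.42011 and MSTRG.42012 overlap each other on the same strand, so reads may be split between them.

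*Muc4* encodes a membrane-bound mucin of the ocular surface glycocalyx. The gapped locus MSTRG.10791 inside it (chr11:71266989-71270125, +) had 117, 64.7 and 141 FPKM in normal and 95.5, 182 and 138 in diabetic libraries, and *Muc4* had 150, 122 and 163 against 151, 227 and 185. Both were lowest in normal replicate 2 and highest in diabetic replicate 2. After quantile normalization the 6 libraries fell in the same order for both (Pearson r = 0.96, Spearman rho = 1.0). On FPKM the order differed: normal replicates 1 and 3 lay above the diabetic replicates of those numbers for the locus, and below them for *Muc4*. A shorter gapped locus in the same stretch, MSTRG.10792, was at 0 in normal replicate 2 and at 39.7 to 159 FPKM elsewhere. It overlaps MSTRG.10791 on the same strand, so reads may be split between them. Inside *Erich5*, MSTRG.40684 had 49.5 ± 4.73 FPKM in normal and 52.0 ± 7.20 in diabetic libraries, close to *Erich5* itself at 55.6 ± 11.6 and 60.3 ± 5.86.

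A few short continuous loci were far above the gene they lay in. *Dock8* encodes a guanine nucleotide exchange factor for Cdc42. The 308-base locus MSTRG.5957 inside it (chr1:243107872-243108179, -) had 170, 167 and 134 FPKM in normal and 158, 135 and 115 in diabetic libraries, while *Dock8* had 2.69 ± 0.0944 and 2.39 ± 0.147. The 619-base locus MSTRG.27676 inside *Rtn4ip1*, a mitochondrial protein, had 41.0 ± 4.31 and 39.2 ± 2.65 FPKM against 2.01 ± 0.546 and 2.18 ± 0.282 for the gene. Neither of them passed the test between the groups (limma adjusted p = 0.953 and 0.979).

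*Sh3rf3*, a ubiquitin ligase scaffold of JNK signalling, was expressed near 1 FPKM and held a pair of much stronger antisense loci. MSTRG.27307 had 16.3, 7.16 and 28.3 FPKM in normal and 3.72, 2.35 and 5.51 in diabetic libraries, and MSTRG.27302 had 14.8, 6.08 and 25.3 against 3.47, 2.17 and 5.18. Both lay lower in every diabetic than in any normal library, and both had the same order of libraries. The log2 fold changes of -1.76 (SE 0.45) and -1.68 (SE 0.46) did not pass by limma or edgeR (limma adjusted p = 0.953 for each, edgeR 0.991 for each). DESeq2 called both loci lower (adjusted p = 6.69e-04 and 0.00253).

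As a class, loci over a partner's start had a median of 2.53 FPKM, near the 2.55 of loci inside a partner. They included some of the stronger ones, which are described here. *Spred2* encodes an inhibitor of Ras-ERK signalling. The locus over its start, MSTRG.15679 (chr14:104182324-104197150, -), is gapped, with a counted length of 249 bases in a span of 14827, and had 11.2, 10.7 and 17.5 FPKM in normal and 13.8, 10.4 and 20.8 in diabetic libraries. *Spred2* had 4.49, 4.48 and 5.10 against 4.54, 2.66 and 5.81, in the same order of libraries (rho = 1.0, r = 0.73). Over the start of *Myo1e*, a class I myosin, MSTRG.43517 had 9.92 ± 2.91 and 8.61 ± 2.39 FPKM against 5.13 ± 0.696 and 6.03 ± 0.815 for the gene, with r = -0.73. MSTRG.44265, which overlaps the first 175 bases of *Tcta*, had 8.87 ± 1.51 and 7.71 ± 0.448 against 6.07 ± 0.757 and 4.86 ± 0.681. MSTRG.23861 spans 393072 bases and covers the start of *Ankh*, a membrane protein that exports pyrophosphate precursors, with 9.66 ± 2.06 and 7.70 ± 1.35 FPKM against 16.0 ± 1.07 and 16.0 ± 1.98.

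Some partners are known from other work to have an antisense transcript. *Pax6*, the master regulator of eye and corneal epithelial identity, had a gapped locus over its start, MSTRG.29092 (chr3:95687142-95704634, -), with 3.00, 2.65 and 3.28 FPKM in normal and 2.63, 2.11 and 1.72 in diabetic libraries. The diabetic values lay below all normal ones, but the log2 fold change of -0.34 (SE 0.16) did not pass (limma adjusted p = 0.953), and *Pax6* had 19.97 ± 2.80 and 17.8 ± 0.929 FPKM. *Emx2*, a homeobox gene with an antisense transcript read across its start in human and mouse, had MSTRG.6837 there, at 8.12 ± 2.63 and 8.61 ± 0.174 FPKM against 4.95 ± 2.41 and 3.05 ± 0.413. In normal replicate 2 alone the locus was low (5.12 FPKM) and *Emx2* high (7.72), which sets their r of -0.89 beside a rho of -0.029. *Igf2r*, the clearance receptor for IGF2, is imprinted in the mouse by the antisense RNA Airn. Its locus MSTRG.2371 covered its start and had 0.987, 0.337 and 0.373 FPKM in normal and 0.423, 0.726 and 1.07 in diabetic libraries, while *Igf2r* stayed between 6.56 and 7.08. Whether these loci are the known transcripts was not tested. *Pax6*, *Emx2* and *Igf2r* were picked out after their values had been seen.

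Besides their partner, 45 antisense loci also overlapped a locus of another annotated type on their own strand, among them 12 with a snoRNA, the small RNAs that guide modification of ribosomal RNA and are cut from introns of host transcripts, and 12 with an annotated antisense RNA. Inside *Znfx1*, a helicase gene, the gapped locus MSTRG.30605 with a snoRNA had 2.48 ± 0.451 and 2.09 ± 0.191 FPKM, near *Znfx1* at 2.51 ± 0.878 and 2.31 ± 0.530. The locus with a snoRNA over the end of *Epb41l4a*, a membrane-cytoskeleton linker, had 1.85 ± 0.572 and 1.57 ± 0.260 against 2.79 ± 0.251 and 3.40 ± 0.182.

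Over the 6 libraries an antisense locus and its partner tended to move together. Among the 3815 pairs with both loci at 0.5 FPKM or more, the median Pearson r of quantile-normalized log2(FPKM + 1) was 0.31 (quartiles -0.12 and 0.66), 68.7% of pairs were above 0, 252 (6.61%) above 0.9 and 38 below -0.9. With the nearest coding locus that it did not overlap, the same antisense locus had a median r of 0.016, and 1.23% of those pairs were above 0.9. Sense fragments and the gene that holds them, at a median of 0.25 over 2322 pairs, were closer to the antisense pairs than to the neighbours. Continuous and gapped loci had medians of 0.31 and 0.32. Loci inside the partner had 0.32, those over its end 0.25, those over its start 0.22, and the 23 pairs in which the locus spanned the gene whole 0.080. All pairs share the 6 libraries, and these medians are descriptions.

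**Figure D3:**
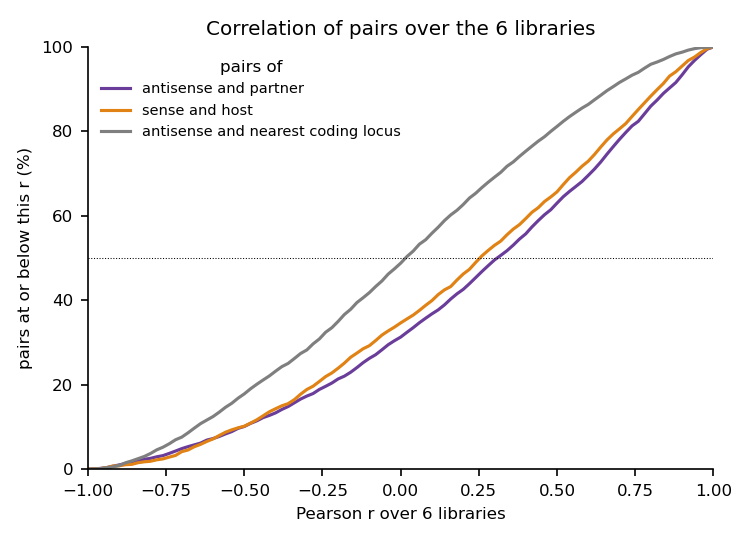
Cumulative share (%) of pairs at or below each Pearson r over the 6 libraries, for antisense loci with their partner, sense fragments with their host gene, and antisense loci with the nearest coding locus not overlapped; the dotted line marks the median. The curve for partners lies to the right of that for neighbours, with medians of 0.31 and 0.016.

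Taking the mean of each group off left the medians at 0.32 for partners, 0.24 for sense fragments and 0.019 for neighbours. Without diabetic replicates 2 and 3 they were 0.30, 0.22 and 0.033 over the 4 libraries left. Among pairs with r over 0.9, those libraries were the 2 highest or 2 lowest for the partner in 54.8%, against 35.6% of all pairs. No single pair passed a test: over all 9952 pairs computed, the smallest adjusted exact two-sided permutation p was 0.247 for r and 0.311 for rho, and the smallest raw p that 6 libraries allow is 0.00139.

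The pairs at the extremes of r, among those with both loci at 2 FPKM or more, were chosen for it and are described only. *Exoc6b* encodes a subunit of the exocyst, which tethers secretory vesicles. The continuous locus MSTRG.32397 inside it had 2.50, 2.28 and 2.65 FPKM in normal and 2.16, 3.70 and 3.602 in diabetic libraries, and *Exoc6b* had 8.36, 7.97 and 8.92 against 7.73, 11.6 and 11.2. Diabetic replicates 2 and 3 were highest for both, r was 0.997 and rho 1.0, and r was 0.96 without the 2 libraries farthest from the median of *Exoc6b*. *Ext1*, a heparan sulfate polymerase, *Btbd11* and *Ttc39c* had antisense loci with r of 0.993 each, and these r values stayed between 0.92 and 0.98 without the 2 libraries farthest from the median of the gene. All 4 loci lay inside the gene.

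At the other end, *Daam1* encodes a formin that builds actin filaments downstream of Wnt planar polarity signals. MSTRG.38208 (chr6:94582948-94601542, -) covers its start, beginning at the same base as the *Daam1* locus, and had 0 counts in the 3 normal libraries and diabetic replicate 1 but 15994 and 15849 counts, or 12.1 and 11.6 FPKM, in diabetic replicates 2 and 3. *Daam1* had 6.55, 6.98 and 7.46 FPKM in normal libraries, 6.69 in diabetic replicate 1, and 4.10 and 4.15 in diabetic replicates 2 and 3. So the libraries with the antisense locus were those with the lower *Daam1*, with r = -0.99 and rho = -0.78. Without the 2 libraries that hold the antisense locus, no r can be computed. DESeq2 called the locus higher in diabetic libraries (adjusted p = 1.86e-10) although diabetic replicate 1 had 0 counts. It did not pass by limma (adjusted p = 0.953) or edgeR (0.991). As counts, *Daam1* had 61344, 63389 and 72315 in the normal group against 68817, 30256 and 31707 in the diabetic group.

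*Retreg3*, a receptor for turnover of the endoplasmic reticulum, split the libraries in the same way. The normal libraries had 7.71, 7.80 and 7.86 FPKM of it and the diabetic ones 8.18, 19.96 and 19.2, while MSTRG.9186 inside it had 2.52, 2.45 and 2.51 against 2.18, 1.72 and 1.82 (r = -0.97, rho = -0.89). The antisense values spanned a narrower range than those of the gene. *Marchf8*, a membrane-bound ubiquitin ligase, and its locus MSTRG.33029 had r = -0.97, and *Eif5b*, the factor that joins ribosomal subunits, and MSTRG.45365 had r = -0.98. In the *Eif5b* pair the extreme library was normal replicate 3, with the highest antisense value (3.15 FPKM) and the lowest *Eif5b* (9.78). Without the 2 libraries farthest from the median of the gene, r was -0.998 for *Retreg3*, -0.96 for *Marchf8* and -0.98 for *Eif5b*.

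**Figure D4:**
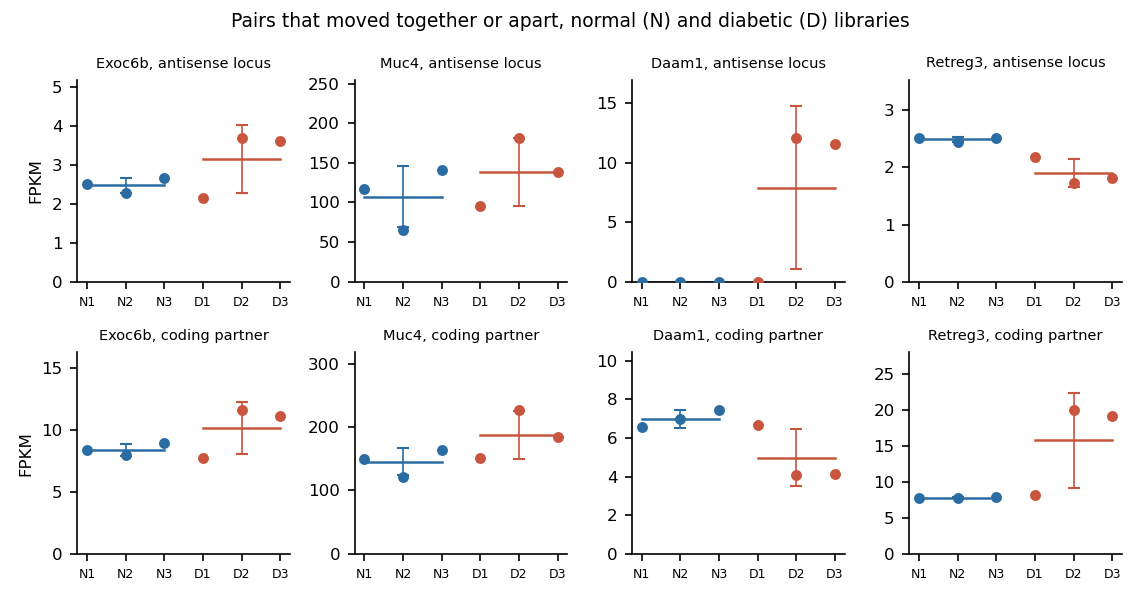
FPKM of the antisense locus (top row) and its coding partner (bottom row) in each normal (N, blue) and diabetic (D, red) library for *Exoc6b*, *Muc4*, *Daam1* and *Retreg3*; lines are group means and bars 1 SD (n = 3). At *Daam1* the antisense locus is at 0 in 4 libraries and at 12.1 and 11.6 in D2 and D3, where the gene is lowest.

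Switching between 0 and many counts was not frequent. Of the 3873 antisense loci, 3734 had counts in all 6 libraries, and 134 (3.46%) were at 0 in some library with at least 50 counts in another, against 3.10% of all loci tested and 0.700% of coding loci. In 2 of these the switch followed the groups: the *Zfp655* locus below, and MSTRG.19896 at a locus joining *Celf2* with another symbol, with 0, 0 and 0 counts in normal and 314, 419 and 86 in diabetic libraries. MSTRG.19896 was not called by limma. Whatever the group, 24 antisense loci were at 0 in exactly 3 libraries. The share of all loci that switched with the groups was not computed, so the count of 2 is a description only.

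Diabetic and normal libraries were compared to ask whether antisense transcription changed with diabetes. Of the 3873 antisense loci, 2 were called higher in diabetic libraries by limma (adjusted p under 0.05, fold above 1.2), or 0.0516%, against a background of 0.0188% of all 42551 loci tested. None was called lower, against a background of 0.00705%. At an unadjusted p under 0.05, 96 were higher (background 2.44%) and 85 lower (background 2.35%). The median log2 fold change was -0.00059 for antisense loci and -0.0049 for all loci tested, and 49.9% of the antisense loci were above 0. The groups did not overlap in 137 loci that were higher (3.54%, background 3.94%) and 238 that were lower in diabetic libraries (6.15%, background 5.72%). The shares at an unadjusted p and without overlap were near those of all loci. On the counts, edgeR called 1 higher (background 0.0094%) and 0 lower (background 0.0047%), and DESeq2 called 7 higher (background 0.144%) and 5 lower (background 0.0898%). The 7 include the *Daam1* locus MSTRG.38208, which was at 0 in diabetic replicate 1.

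*Dut* encodes the enzyme that breaks down dUTP and so keeps uracil out of DNA. The 362-base locus MSTRG.29627 inside it (chr3:117516296-117516657, -) had 0.154, 0 and 0 FPKM in normal and 7.86, 10.8 and 5.36 in diabetic libraries, from 5, 0 and 0 against 259, 255 and 131 counts. All diabetic libraries lay far above all normal ones. Its log2 fold change was 3.07 (SE 0.24, limma adjusted p = 0.0170), while edgeR gave an adjusted p of 0.310 and DESeq2 one of 9.12e-15. It too passed the FPKM minimum through the diabetic libraries alone, and without that minimum its limma adjusted p was 0.0690. *Dut* itself did not pass, at 4.69, 4.52 and 5.64 FPKM in normal and 5.51, 3.98 and 3.09 in diabetic libraries (adjusted p = 0.956). Leaving out any library but diabetic replicate 3 raised the limma adjusted p of the locus to between 0.0649 and 0.123.

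*Zfp655* encodes a zinc finger protein. MSTRG.11526 (chr12:11123236-11147787, +) spans this gene whole, with a counted length of 1034 bases, and had 0 counts in every normal library against 585, 236 and 441 in the diabetic ones, which came to 5.72, 3.21 and 5.81 FPKM. The locus was at least 152-fold higher in the diabetic group, with a floor of 3 counts in each normal library. Its log2 fold change was 2.54 (SE 0.21, limma adjusted p = 0.0193, edgeR 0.0419, DESeq2 5.05e-16), on a scale that understates changes from 0. It passed the FPKM minimum through the diabetic libraries alone, and without that minimum its limma adjusted p was 0.0866. *Zfp655* had 5.31 ± 0.282 FPKM in normal and 5.02 ± 0.790 in diabetic libraries (adjusted p = 0.978). Leaving out any library but diabetic replicate 2 raised the adjusted p of the locus to between 0.0796 and 0.162.

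The locus of next smallest p touched a gene that was itself called. *C1ql3* encodes a secreted C1q-like protein best known from synapses. MSTRG.20037 (chr17:80313500-80314188, +) overlaps the last 3 bases of it and had 0.815, 0.249 and 0.420 FPKM in normal and 3.69, 4.47 and 3.76 in diabetic libraries. *C1ql3* had 0.0599, 0.309 and 0.150 against 3.57, 3.44 and 3.63, so that both were high in every diabetic library. The gene passed by limma (log2 fold change 1.99, adjusted p = 0.0193, edgeR 0.174, DESeq2 5.13e-15) and the antisense locus did not (1.77, SE 0.19, limma adjusted p = 0.0690, edgeR 0.415, DESeq2 1.36e-07). The normal means, 0.173 FPKM for *C1ql3* and 0.495 for the locus, were under the FPKM minimum, so both passed it through the diabetic libraries. Without that minimum the limma adjusted p of *C1ql3* was 0.0611, and with a pseudocount of 0.1 it was 0.200. Leaving out any library but normal replicate 2 lifted the adjusted p of *C1ql3* above the threshold, up to 0.208. Within groups the pair did not run together: r was 0.96 over the 6 libraries and -0.91 with group means taken off.

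Among the other loci of smallest p whose groups did not overlap, none passed by limma. *Disp1* encodes the transporter that releases lipid-bound Hedgehog proteins. The continuous locus MSTRG.13917 inside it (chr13:101473243-101502493, +) had 5.20, 4.85 and 4.995 FPKM in normal and 7.85, 7.31 and 8.08 in diabetic libraries, while *Disp1* had 5.28, 4.38 and 5.27 against 4.60, 4.31 and 5.60. The antisense groups were well apart and those of the gene overlapped (log2 fold change 0.56, SE 0.10, limma adjusted p = 0.804, edgeR 0.330, DESeq2 3.57e-04). MSTRG.30346, inside a gene like band 4.1, was also higher, at 8.02 ± 1.75 against 4.005 ± 1.19 FPKM. Lower in diabetic libraries were MSTRG.14176 inside *Mtf2*, a Polycomb cofactor (0.740 ± 0.206 against 2.12 ± 0.197), MSTRG.36367 inside *Usp48*, a deubiquitinase (1.24 ± 0.234 against 2.70 ± 0.142), and MSTRG.41513 inside *Ep300*, a histone acetyltransferase (1.36 ± 0.309 against 2.58 ± 0.197). Of these 4, limma gave an adjusted p of 0.953 for each and edgeR 0.991 for each, while DESeq2 called MSTRG.36367 (0.0460) and gave 0.139, 0.244 and 0.594 for MSTRG.30346, MSTRG.14176 and MSTRG.41513. Their partners were not called either.

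**Figure D5:**
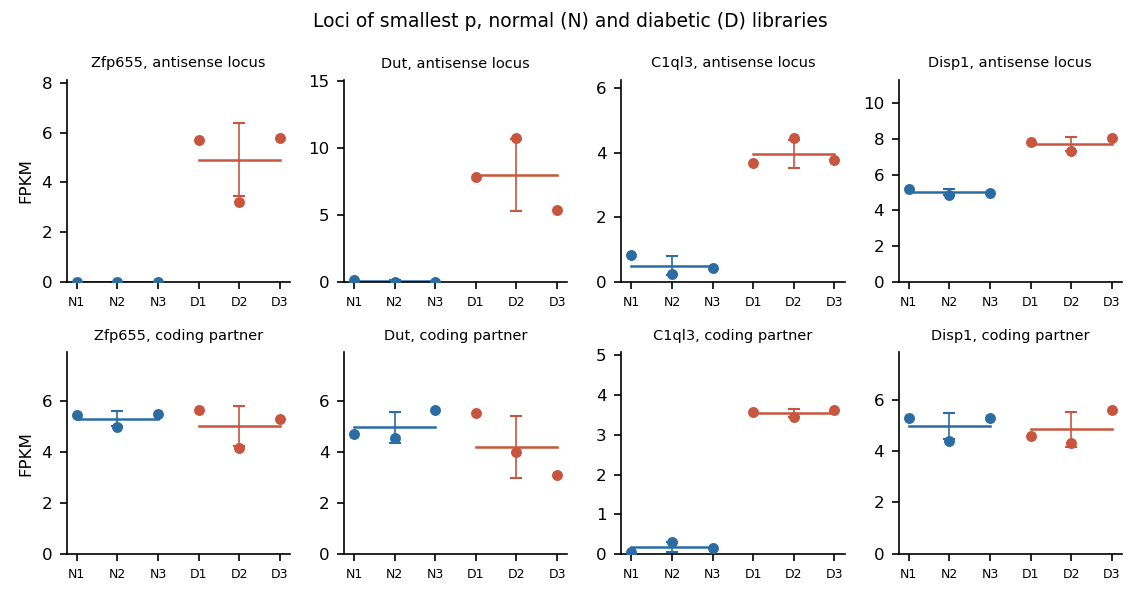
FPKM of the antisense locus (top row) and its coding partner (bottom row) in each normal (N, blue) and diabetic (D, red) library for *Zfp655*, *Dut*, *C1ql3* and *Disp1*; lines are group means and bars 1 SD (n = 3). The antisense groups are apart in all 4 panels, and the partner groups are apart at *C1ql3* alone.

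Antisense loci at genes of corneal epithelial function were then examined by list. Partners made up 8 of the 29 corneal epithelial identity genes at 0.5 FPKM, 13 of 41 junction, adhesion and basement membrane genes, 5 of 23 circadian clock genes, 8 of 42 glucose, insulin and oxidative stress genes, 2 of 41 inflammation and pyroptosis genes and 15 of 39 epithelial growth signalling genes. Of the 104 antisense loci at these genes none was called by limma, edgeR or DESeq2, and 3 had an unadjusted p under 0.05, where 2.44% of all loci tested were higher and 2.35% lower. The median log2 fold changes were -0.16 for corneal identity, -0.083 for junctions, 0.40 for the clock, 0.0096 for glucose and insulin, 0.093 for inflammation and 0.026 for growth signalling, beside -0.0049 for all loci tested. They rest on 16, 26, 7, 19, 2 and 34 antisense loci in turn. A gene was counted as a partner by its locus of highest FPKM, but antisense loci by any partner carrying the name. *Krt5* is therefore not among the 8 corneal identity genes, while the antisense loci over the partner that joins its name are among the 16. Of the 7 at clock genes, 3 are the *Hlf* loci below, which overlap each other.

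Among junction genes, MSTRG.20446 inside *Dsg3*, a desmosomal cadherin, had 24.2 ± 6.30 FPKM in normal and 20.5 ± 12.6 in diabetic libraries, at 15.8% of *Dsg3*. MSTRG.19119 inside *Dsp*, the desmosomal plaque protein, had 22.5 ± 2.26 and 21.3 ± 0.242, at 5.40% of *Dsp*. The epithelial stem cell factor *Tp63*, chosen after its values were seen, held MSTRG.10910 at 8.86 ± 3.25 and 7.13 ± 4.02 FPKM, or 30.7% of the gene. At all 3 the groups overlapped.

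*Hlf*, a clock-output transcription factor, held 3 gapped loci that overlap each other on the same strand. MSTRG.8844 had 13.2 ± 5.21 FPKM in normal and 18.3 ± 6.35 in diabetic libraries, above or near *Hlf* at 13.5 ± 1.29 and 15.8 ± 1.83. MSTRG.8843 had 11.1, 9.48 and 9.47 against 11.5, 13.0 and 11.2, where the diabetic values lay above all normal ones (log2 fold change 0.25, SE 0.11, limma adjusted p = 0.953). MSTRG.8845 had 4.81 ± 3.35 and 6.53 ± 3.22. Reads of loci that overlap each other on 1 strand may be split between them, so their single levels are uncertain.

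Of the glucose and insulin genes, *Foxo3*, a stress-responsive forkhead factor, held 2 continuous loci. MSTRG.27573 had 7.56 ± 0.490 and 7.92 ± 0.327 FPKM, above *Foxo3* at 5.33 ± 2.55 and 7.26 ± 0.982. MSTRG.27574 had 3.61, 4.33 and 3.92 in normal and 4.47, 4.38 and 4.82 in diabetic libraries, just apart (log2 fold change 0.18, SE 0.11, limma adjusted p = 0.953). The name of the *Foxo3* locus joins a second symbol. At *Igf1r*, the receptor for insulin-like growth factors, MSTRG.3815 had 5.91 ± 0.824 and 5.94 ± 1.71 FPKM against 7.63 ± 0.847 and 8.24 ± 1.70.

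Of the inflammation genes, *Nfkb1* encodes a subunit of the transcription factor NF-kappa B. MSTRG.26158 inside *Nfkb1* had 2.82 ± 0.231 FPKM in normal and 3.11 ± 0.779 in diabetic libraries, and *Nfkb1* had 5.54 ± 0.865 and 6.66 ± 0.672. The groups overlapped for both, r of the pair was 0.72, and the antisense locus was not called.

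The 34 loci at growth signalling genes stood at a median of 30.4% of their partner, and the 3 of highest FPKM, named here for their level, were above the gene. At *Egfr*, the receptor for epidermal growth factor, MSTRG.15664 had 13.8 ± 5.17 and 13.2 ± 1.82 FPKM, and the 28308-base MSTRG.15662 had 10.6 ± 0.560 and 11.5 ± 1.46, against 8.58 ± 1.35 and 9.61 ± 0.997 for *Egfr*. At *Fgfr2*, a fibroblast growth factor receptor, the gapped MSTRG.5034 covered the end, with 16.5 ± 8.18 and 13.7 ± 6.35 against 5.65 ± 0.550 and 5.49 ± 0.665. In each of these the groups overlapped.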

How the data were processed

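RNA-seq of 3 normal and 3 diabetic libraries was analysed, grouped by their sample titles. Per the labels, the authors used cutadapt, FastQC and Bowtie2 on build rn6. Tool versions, and the program that assembled and counted the loci, are not given in the labels or methods. The authors deposited a raw count and an FPKM value for each of 61453 loci, and the FPKM placeholder where a count is 0 was set to 0 here. Counted length was taken from count, FPKM and library total, and a locus was called continuous where it matched the span as in loci without strand.

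The antisense loci, partner lists and named loci were chosen with earlier results of these data known. Named were the called loci, the 10 of highest FPKM, the 8 of smallest p without overlap of groups, the 6 of highest ratio, 4 pairs of highest and 4 of lowest r, up to 3 per partner list, and the loci at the FPKM edge. Loci over a start, over snoRNAs, at *Emx2*, *Pax6* and *Tp63* and at the switched loci were added after values had been seen. Some named loci are not reported here.

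All 42551 loci whose mean FPKM reached 0.5 were put on the log2(FPKM + 1) scale, quantile-normalized and tested with limma 3.58.1 (eBayes with trend, Benjamini-Hochberg over all of them) in R 4.3.3. Calls needed an adjusted p under 0.05 and a fold over 1.2. The deposited counts were also tested with edgeR 4.0.16 (quasi-likelihood) and DESeq2 1.42.0. These steps were tested on simulated data. Pair correlations were tested by exact permutation over 720 orders, adjusted over 9952 pairs. Python 3.11.15 with pandas 2.3.3 and scipy 1.17.1 made the other tables, and matplotlib 3.10.9 the figures. Intervals and floors cover counting error only, at totals of 62288901 to 87040253 counts. The labels do not say that replicate numbers pair the libraries, and the main fit did not pair them. Alternatives changed the normalization, pseudocount, filter, test, partner, overlap, FPKM minimum, block and libraries used.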

Additional observations from a re-analysis of the deposited data

How the results depend on the processing

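The 2 antisense loci called higher became 1 with a pseudocount of 0.1 or with edgeR (TMM or DESeq2 size factors), 7 with DESeq2, and 0 without the filter on low values, with the replicate block or without diabetic replicates 2 and 3. Leaving out 1 library gave 0 to 1 higher and 0 to 1 lower. The 0 called lower became 5 with DESeq2. Other normalizations, no trend, a minimum of 1 FPKM and no fold threshold kept both counts.

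Deviations of same-numbered libraries correlated at -0.0092, 0.025 and 0.032, and those of differently numbered libraries at -0.072 to 0.053. No pairing by number showed in these values. Whether equal numbers mark a shared batch was not tested.

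The median log2 ratio to the partner was -3.50 on mean counts and -1.25 for gapped loci alone. The median r was 0.335 without quantile normalization, 0.257 as Spearman rho, 0.326 for loci with counts in all 6 libraries, and 0.311 to 0.351 leaving out 1 library.

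Partners that were not called changed sign when 1 library was left out: that of MSTRG.11526 ran from -0.13 to 0.038, of MSTRG.13917 from -0.10 to 0.034, of MSTRG.14176 from -0.011 to 0.092, of MSTRG.30346 from -0.027 to 0.24 and of MSTRG.41513 from -0.062 to 0.031. Without diabetic replicates 2 and 3 the partners of MSTRG.11526, MSTRG.29627 and MSTRG.30346 were at 0.086, 0.14 and -0.25. The causes were not tested. The subset of gapped loci, that of loci counted in all libraries, the stricter reading of coding (3599 antisense loci) and the fits without diabetic replicates 2 and 3 were chosen after seeing the data.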
